A study of Mus musculus with 1087 samples.

Results

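The 34 imprinted genes described here were taken by symbol from a list, and all 34 were found among the 46078 genes of the count table. By background knowledge, 19 of them are expressed mainly from the paternal allele, 14 mainly from the maternal allele, and Gnas from either allele depending on the transcript. Messenger RNA had been sequenced in single cells of the mouse aorta-gonad-mesonephros (AGM) region, in which blood stem cells arise from the endothelium of the dorsal aorta. All embryos were Gata2V/+ (1 allele of Gata2, a transcription factor of blood stem cells, carries the fluorescent reporter Venus), from wild-type C57BL/6HsdJOla (Ly5.2) females and Gata2V/V males backcrossed onto that strain, so controls without the reporter were not part of these groups. Cells were stained for CD31, cKit and CD27, and the sample names call all of them KitHi. The groups were E10 with intermediate Venus (G2VInt, 87 cells), E11 G2VInt (130 cells), E11.5 G2VInt, E11.5 with low Venus (G2VLo) and E11.5 CD27+, for which the Venus level is not stated. At E11.5 the cells of clusters 1, 2, 7 and 8 and class HC2, explained next, numbered 68, 54, 63, 39 and 44 in G2VInt.

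The labels assign each cell outside the CD27+ group to a numbered cluster and a class of the authors' clustering. Clusters 1 and 2 form EC, clusters 7 and 8 form HC1, clusters 9, 10 and 11 form HC2, clusters 5 and 6 form U1, and clusters 3 and 4 remain. The labels do not spell out these names. In E11.5 G2VInt cells, 10 endothelial markers (Pecam1, Cdh5 and others) summed to 11435 CPM (reads scaled to the same total in every set) in cluster 1, 8788 in cluster 2, 3952 in cluster 7, 2264 in cluster 8 and 357.98 in HC2, and 10 hematopoietic markers to 112.2, 71.5, 1600, 1526 and 903.1. The 8 macrophage markers summed to 13896 CPM in U1 of the G2VLo cells and to at most 39.7 in EC, HC1 and HC2 of the E11.5 G2VInt cells. Median depth was 2121423, 2212898 and 1892779 reads per cell in the E10, E11 and E11.5 G2VInt cells, and 539090 and 621544 in the G2VLo and CD27+ cells. The library numbers of the 3 G2VInt groups and of the G2VLo group do not overlap, so day or gate cannot be told apart from library block among them. Those of the CD27+ cells lie inside the range of the G2VLo cells, at a similar depth.

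No embryo, litter or sorting day is given in the labels. Each group was therefore taken as 1 sample, and its cells as no replicates. No test was run and no p-value is given. Reads were summed over the cells of a set and given as CPM. A gene counts as measured in a comparison with at least 10 CPM in 1 of the sets and, after thinning each cell to 100000 reads, a read in at least 5% of the cells of the higher set. It counts as called at a 2-fold ratio or more. A member can be measured through 1 of the sets alone, and clusters were formed from expression itself, so counts between clusters are descriptions. Beside each first count stands the percentage of all measured genes that were called. Intervals are 95% Poisson or Clopper-Pearson intervals and cover counting error only.

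An imprinted gene is transcribed mainly from the copy inherited from 1 parent, because an imprinting control region was methylated in the egg or in the sperm. Paternally expressed genes include several that promote fetal growth, and maternally expressed genes several that restrain it. In adult blood stem cells, the H19-Igf2, Dlk1-Meg3 and Cdkn1c loci are known for roles in quiescence. The counts do not tell the alleles apart, so the words paternal and maternal below are background and were not measured.

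The 34 genes lie mostly in groups of neighbours on GRCm38. On chromosome 7, H19 (chr7:142575529-142578143, minus strand) is a long noncoding RNA next to the growth factor gene Igf2 (chr7:142650766-142666816, minus). The same chromosome holds Kcnq1ot1 (chr7:143203458-143296549), a noncoding RNA antisense to Kcnq1, and Cdkn1c (chr7:143458339-143461050), the cyclin-dependent kinase inhibitor p57. On chromosome 12, Dlk1 (chr12:109452823-109463336, plus) codes for a Notch-related membrane protein, and Meg3 (chr12:109541001-109571726, plus) begins the maternally expressed noncoding transcripts that continue with Rian and Mirg. Mest (chr6:30723547-30748465, plus) codes for a hydrolase-like protein. Overlap limits some assignments: 23.1% of the exon bases of Mest are shared with Copg2 and 22% of those of Gnas with Nespas and Gm20721, all on the opposite strand. For Snrpn, 27.3% of the exon bases are shared with Snurf and Gm38393 on the same strand. The strand setting of the counting is not given in the sources used here.

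H19, Igf2, Mest and Meg3, on which many of the results below turn, each host 1 miRNA hairpin, whose mature sequences are given because the host transcript, not the miRNA, was counted. Usp29 (1 hairpin), Rian (3) and Mirg (14) are hosts as well, and their miRNAs are not printed. They are from RefSeq on GRCm38.p6, 5′ to 3′, with the seed (bases 2 to 8) in capitals. The 8 seeds are all different.
miR-675-3p (H19): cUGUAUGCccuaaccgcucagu
miR-675-5p (H19): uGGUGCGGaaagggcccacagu
miR-483-3p (Igf2): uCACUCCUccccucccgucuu
miR-483-5p (Igf2): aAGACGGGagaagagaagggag
miR-335-3p (Mest): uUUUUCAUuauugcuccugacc
miR-335-5p (Mest): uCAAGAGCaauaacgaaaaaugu
miR-770-3p (Meg3): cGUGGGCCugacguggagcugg
miR-770-5p (Meg3): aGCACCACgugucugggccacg

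The promoters of Mest, Peg3, Igf2 and Meg3, 1 member each of 4 imprinted loci that differed between the classes, are shown as the 250 bases before a RefSeq start (GRCm38.p6), with each CG and the sequence TATAAA in capitals, since CG is where imprints are methylated.
Mest, chr6:30737800-30738049, plus: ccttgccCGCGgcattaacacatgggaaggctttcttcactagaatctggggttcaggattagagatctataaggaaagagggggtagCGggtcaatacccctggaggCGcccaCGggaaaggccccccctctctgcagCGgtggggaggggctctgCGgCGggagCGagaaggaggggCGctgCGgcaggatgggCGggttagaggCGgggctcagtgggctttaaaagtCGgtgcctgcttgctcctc
Peg3, chr7:6730420-6730669, minus: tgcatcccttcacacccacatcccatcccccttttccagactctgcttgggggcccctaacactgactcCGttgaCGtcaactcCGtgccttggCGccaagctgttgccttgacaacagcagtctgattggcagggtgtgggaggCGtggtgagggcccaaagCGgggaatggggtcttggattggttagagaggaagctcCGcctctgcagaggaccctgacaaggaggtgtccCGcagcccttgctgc
Igf2, chr7:142658805-142659054, minus: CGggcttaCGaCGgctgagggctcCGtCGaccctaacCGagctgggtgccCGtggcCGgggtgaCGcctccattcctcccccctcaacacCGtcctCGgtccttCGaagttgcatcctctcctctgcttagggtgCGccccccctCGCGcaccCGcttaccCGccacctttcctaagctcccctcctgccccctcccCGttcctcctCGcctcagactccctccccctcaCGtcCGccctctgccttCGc
Meg3, chr12:109540746-109540995, plus: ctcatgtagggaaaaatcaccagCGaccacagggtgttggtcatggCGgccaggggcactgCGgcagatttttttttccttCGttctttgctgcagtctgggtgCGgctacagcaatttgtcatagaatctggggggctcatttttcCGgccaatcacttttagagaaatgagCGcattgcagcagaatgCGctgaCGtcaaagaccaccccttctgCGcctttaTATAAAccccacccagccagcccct
These windows hold 14, 8, 22 and 10 CG. Where a gene has several windows, the one with the most CG was shown, so these counts lie high by choice. The other windows hold 7 and 14 CG for Mest, 1, 10 and 6 for Igf2 and 0 for Meg3. The median was 6 over 32851 windows of all genes, and 8 (range 0 to 40) over the 45 windows of the 28 members that have one. The Peg3 window overlaps the window of Usp29, the neighbouring paternally expressed gene that starts in the other direction. The TATAAA of Meg3 begins 25 bases before its start. TATAAA on either strand was found in 12.4% of all windows and in 10 windows of 8 members. These letters describe the reference and say nothing of methylation in the cells.

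In the E11.5 G2VInt cells as a whole, Mest had the most reads per length, with 829.7 CPM per kilobase of exon. H19 followed with 426.98, Cdkn1c with 175.2 and Igf2 with 174.5. Cdkn1c and Igf2 lay within 1 unit of each other, and the next was Plagl1 with 53.9. The least detected members were Zim1 (6 reads in all cells), Dcn (0.334 CPM), Phlda2 (0.512), Ascl2 (0.675) and Nap1l5 (0.865). Zim1, Dcn, Phlda2, Ascl2 and Usp29 were measured in 0 of the comparisons, and the other 29 in at least 1. The 19 paternally expressed genes took 1.04% of all reads in cluster 1, 0.845% in cluster 2, 0.196% in HC1 and 0.0305% in HC2. The 14 maternally expressed genes took 0.335%, 0.285%, 0.198% and 0.0310%. Both shares were therefore lowest in HC2.

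**Figure D1:**
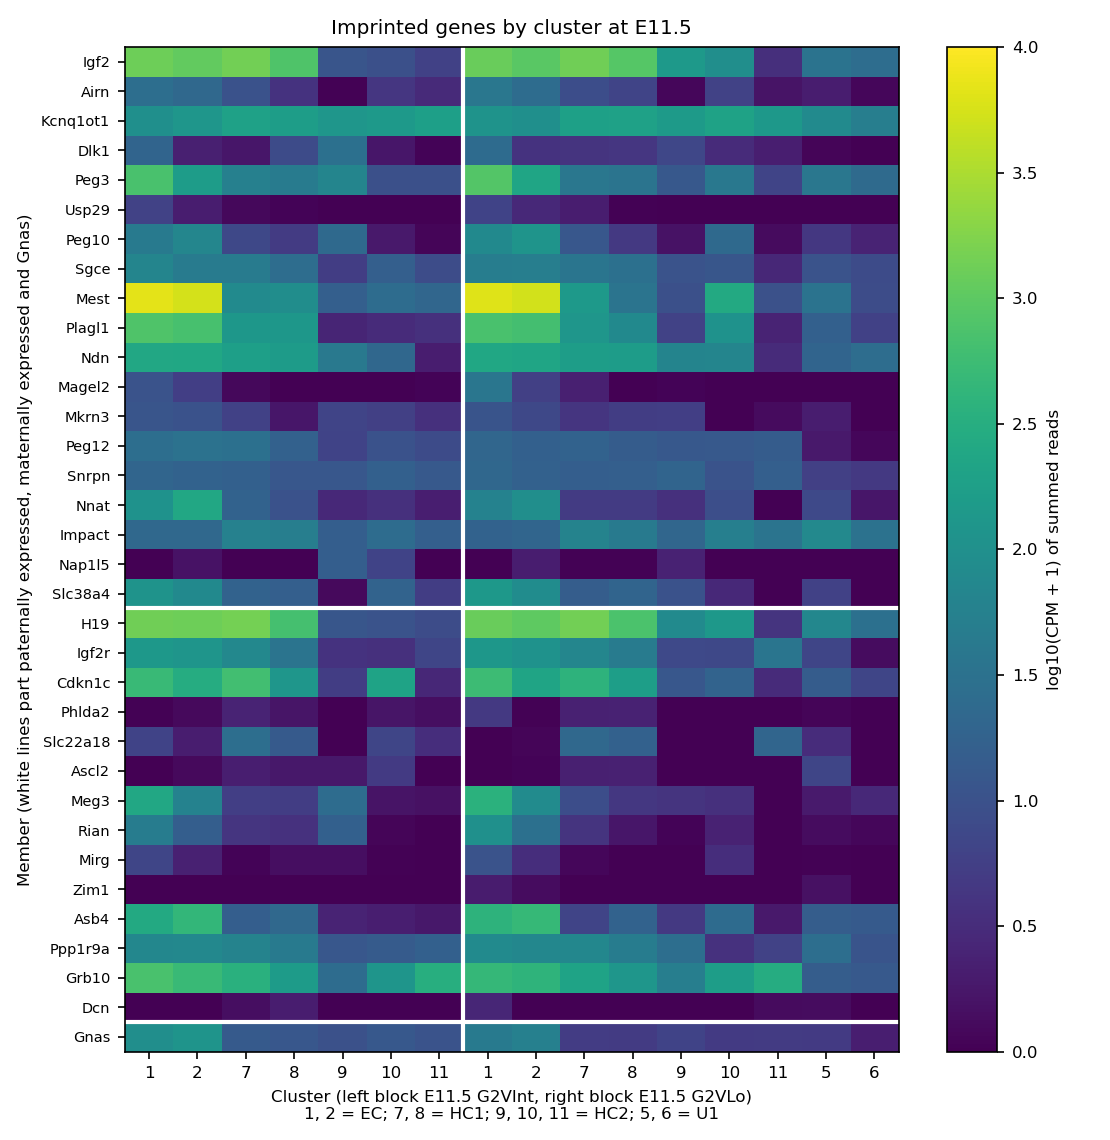
CPM of summed reads (colour, log10 of CPM + 1) of the 34 imprinted genes (vertical axis) in the clusters of E11.5 G2VInt and E11.5 G2VLo cells (horizontal axis). Mest is brightest in clusters 1 and 2, H19 and Igf2 are bright in clusters 1, 2, 7 and 8, and Kcnq1ot1 has a similar colour in all clusters.

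Between endothelial and hematopoietic cells the imprinted genes separated into those that were far higher in clusters 1 and 2, with Mest first in both, and those at like levels in these clusters and HC1, such as H19 and Igf2. In E11.5 G2VInt cells, 26 members were measured between cluster 1 (68 cells) and HC1 (63 cells of cluster 7 and 39 of cluster 8). Of these, 15 were at least 2-fold higher in cluster 1 (12.8% of all measured genes) and 2 at least 2-fold lower (12.5%). The median log2 ratio was 1.53 over the measured members and -0.20 over all measured genes. By parental class, 9 of 16 paternally expressed and 5 of 9 maternally expressed members were higher, and 1 of each was lower. In cluster 2 (54 cells) against HC1, 12 of 24 measured members were higher (11.6% of all genes) and 2 lower (12.9%).

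Mest showed the widest separation. Per cell it ranged from 463.9 to 12359 CPM (median 6410) in cluster 1 and from 1938 to 9532 (median 5211) in cluster 2. In HC1 the range was 2.09 to 2257 CPM with a median of 24.5. Only the highest HC1 cells thus reached the range of EC cells. The summed level was 80.6-fold higher in cluster 1 and 66.6-fold higher in cluster 2 than in HC1. In cluster 8 a single cell held 67.9% of the Mest reads. In HC2, 90.9% of the thinned cells had a Mest read, at a median of 17.5 CPM. Before thinning, 100% of the E11.5 G2VInt cells had reads of Mest, H19 and Igf2, the lowest at 2.09, 1.57 and 1.23 CPM. Whether such low levels are expression of the cells themselves was not tested. In G2VLo cells, thinned to the same 100000 reads, the share with a Mest read was 98.3% in cluster 1, 65.03% in HC1 and 27.8% in HC2.

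Meg3 ranged from 0 to 2750 CPM (median 103.4) in cluster 1 and from 0 to 309.3 (median 35.6) in cluster 2. In HC1 it ranged from 0 to 96 CPM with a median of 0.650. EC and HC1 cells overlapped at the low end, since some EC cells had no Meg3 read. The summed level was 56.6-fold higher in cluster 1 and 13.1-fold higher in cluster 2 than in HC1. Rian, the next transcript downstream, was 15.9-fold and 4.87-fold higher. Mirg, further downstream, did not reach the level to count as measured (5.92 CPM in cluster 1).

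Other paternally expressed genes followed Mest. Peg3, a zinc finger protein, was 14.3-fold higher in cluster 1 and 3.27-fold higher in cluster 2 than in HC1, with per-cell medians of 648.2, 103.4 and 28.3 CPM. Plagl1, a zinc finger factor that regulates other imprinted genes, was 6.02-fold and 5.27-fold higher, with medians of 650.8, 655.9 and 84.4 CPM. For Nnat, a membrane proteolipid, the ratios were 7.72 and 17.5. The retrotransposon-derived gene Peg10 gave 7.56 and 12.3, the amino acid transporter Slc38a4 gave 6.80 and 4.70, and Airn, the noncoding RNA antisense to Igf2r, gave 4.01 and 3.17. Dlk1 (5.84-fold) and the ubiquitin ligase gene Mkrn3 (3.11-fold) were called in cluster 1, not in cluster 2. Both calls were lost without the cell with the most reads, which held 52.7% of the Dlk1 reads of cluster 1.

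Among the maternally expressed genes, Asb4, a ubiquitin ligase adaptor of vascular cells, was 15.2-fold higher in cluster 1 and 25.1-fold higher in cluster 2. Its per-cell median was 204.9 CPM in cluster 1, 403.6 in cluster 2 and 1.31 in HC1. Igf2r, the receptor that clears IGF2, was 2.37-fold and 2.14-fold higher, and both calls were lost among the upper library numbers. The growth factor receptor adaptor Grb10 was 2.68-fold higher in cluster 1 and 1.94-fold in cluster 2. Gnas, which codes for the stimulatory G protein alpha subunit, was 8.03-fold and 9.67-fold higher. The lowest cluster 1 cell had 10.9 CPM, near the HC1 median of 11.4, and the highest HC1 cell had 33.99.

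Members lower in EC than in HC1 were few. Slc22a18, a transporter gene of the Cdkn1c neighbourhood, was 3.91-fold lower in cluster 1 and 19-fold lower in cluster 2 than in HC1, where it ranged from 0 to 194.8 CPM per cell with a median of 0. Impact, a regulator of the kinase GCN2, was 2.51-fold and 2.49-fold lower, with per-cell medians of 16.9 CPM in cluster 1, 15.3 in cluster 2 and 35.9 in HC1. The G2VLo cells were a separate sample. There, cluster 1 held no read of Slc22a18. With a floor of 3 reads set in place of 0, it lay 240.96-fold below HC1, a value that depends on that floor. In the same sample Mest was 79.6-fold, Meg3 68.1-fold and Asb4 31-fold higher in cluster 1 than in HC1. In that sample 16 of 26 measured members were at least 2-fold higher (12.1% of all genes) and 2 lower (12.1%). In cluster 2 of G2VLo, 12 of 24 were higher (11.2%) and 2 lower (13.9%). Magel2, a MAGE family gene of the Prader-Willi region, was called in cluster 1 of G2VLo (36.2 against 0.505 CPM in HC1), where 1 cell held 24.5% of its reads. At E10, with 10 cells in cluster 1 against 63 in HC1, 21 of 27 measured members were higher (15.1% of all genes) and 1 lower (16%). Magel2 (91.9 against 0.295 CPM), Mirg (29.7 against 0.151), Meg3 (940.6 against 6.96) and Rian (288.1 against 2.20) had ratios above 100 there, and so did Mest, at 120.9. H19 was 2.45-fold higher in cluster 1 at E10, a call it did not make at E11.5.

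**Figure D2:**
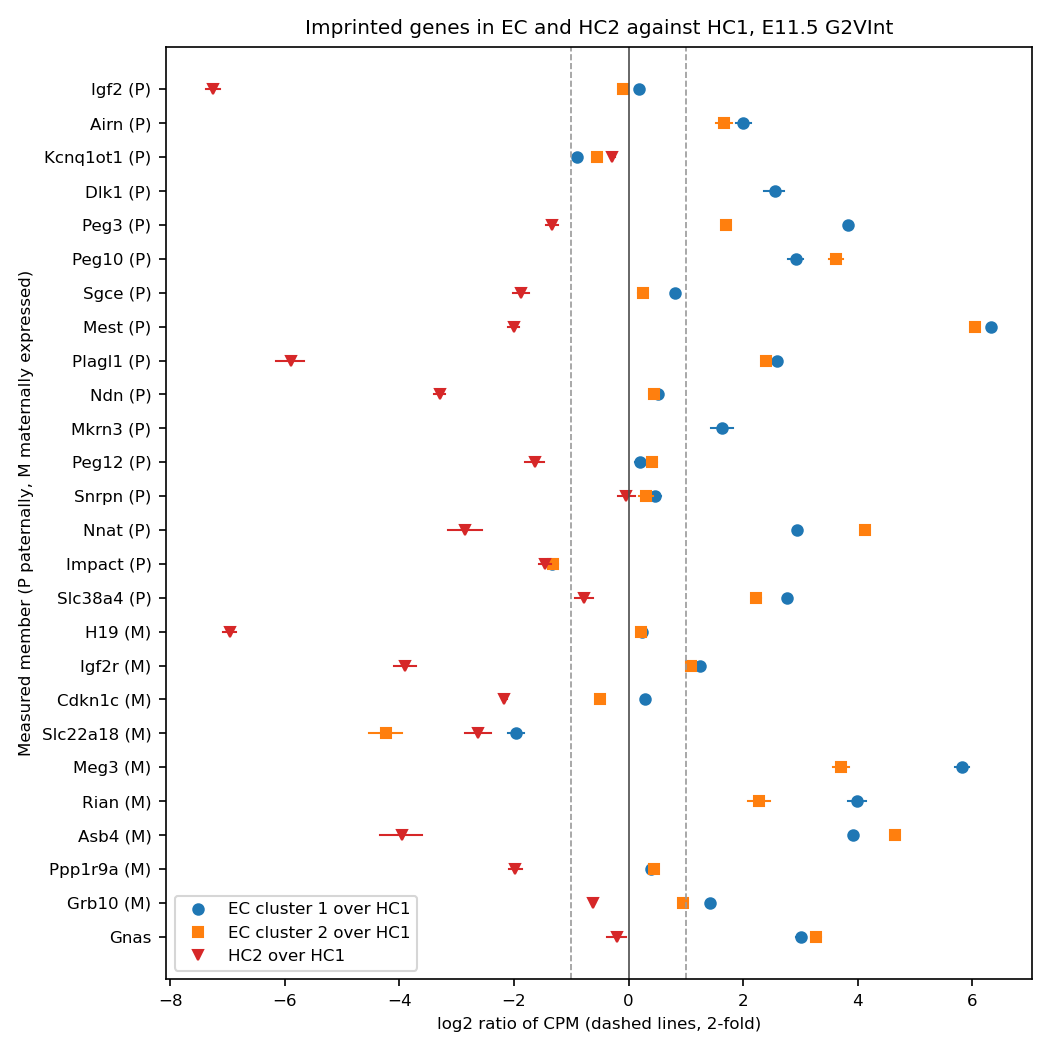
Log2 ratio of CPM (horizontal axis) of each measured imprinted gene (vertical axis) in EC cluster 1, EC cluster 2 and HC2 against HC1 in E11.5 G2VInt cells, with 95% Poisson intervals as bars and dashed lines at 2-fold. The HC2 points lie left of 0, Mest and Meg3 are the farthest right for cluster 1, and H19 and Igf2 lie near 0 for EC and beyond -6 for HC2.

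H19 and Igf2 were abundant in all of clusters 1, 2 and 7. H19 ranged per cell from 381.4 to 3187 CPM (median 1259) in cluster 1, from 378.9 to 7759 (median 1021) in cluster 2 and from 173.8 to 3642 (median 1277) in cluster 7. Igf2 ranged from 178.5 to 4151 (median 1253), from 488.8 to 2993 (median 943.4) and from 261.6 to 3741 (median 1275). The cells of these clusters overlapped almost completely for both genes. Every cell of clusters 1, 2, 7 and 8 in this group had a read of both after thinning (68, 54, 63 and 39 cells). The ratio of H19 to Igf2 reads stayed near 1, at 1.01, 1.22, 1.02 and 0.838. Per kilobase of exon the ratios were 2.36, 2.84, 2.38 and 1.95.

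In HC2 (44 cells) both genes were far lower. H19 ranged from 1.57 to 165.1 CPM with a median of 6.89, and Igf2 from 1.23 to 45.2 with a median of 7.15. No HC2 cell reached the lowest HC1 cell for Igf2 (85.2 CPM), while for H19 the highest HC2 cells overlapped the lowest HC1 cell (100.2 CPM). The summed level of Igf2 was 1163 CPM in HC1 and 7.59 in HC2, a 153.3-fold difference, and that of H19 was 1133 and 9.09, a 124.7-fold difference. After thinning, 19 of the 44 cells had both transcripts, 1 had H19 alone, 9 had Igf2 alone and 15 had neither.

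The other measured members also had ratios below 1 in HC2. Of 20 members measured in HC2 and HC1, 15 were at least 2-fold lower in HC2 (16% of all measured genes) and 0 higher (6.91%). The median log2 ratio was -1.99 over the members and -0.08 over all genes. The lower members were 9 of 12 paternally expressed and 6 of 7 maternally expressed genes. Plagl1 was 59.9-fold lower (per-cell median 84.4 CPM in HC1 and 2.00 in HC2), Igf2r 14.9-fold, Asb4 15.6-fold (lost among the lower library numbers) and Ndn, a MAGE family growth suppressor, 9.80-fold. Sgce, the epsilon-sarcoglycan gene next to Peg10, was 3.68-fold lower, at 10.2 against 37.7 CPM. Cdkn1c was 4.50-fold lower by summed reads, but 54.9% of its HC2 reads came from 1 cell, and the median HC2 cell had 2.68 CPM against 262.2 in HC1. The HC2 reads of Cdkn1c lay mainly in cluster 10 (205.4 CPM), with 4.40 in cluster 9 and 1.81 in cluster 11. Kcnq1ot1 (151.3 CPM in HC2 and 183.3 in HC1), Grb10 (175.1 and 268.3) and Snrpn, a small ribonucleoprotein gene (13.5 and 13.9), were not called.

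Markers of committed blood lineages were higher in HC2 than in HC1. The 8 erythroid markers summed to 973.9 CPM in HC2 and 152.9 in HC1, the 6 mast cell markers to 486.96 and 2.33, and the 6 myeloid markers to 1490 and 334.3. The 10 endothelial markers summed to 357.98 and 3294 CPM. Their part in the difference was not tested. At E11, H19 was 61.8-fold, Igf2 61.5-fold and Plagl1 58.5-fold lower in HC2 (36 cells) than in HC1. Here 12 of 19 measured members were lower (16.7% of all genes), and 1 higher (7.02%). The higher one was Nap1l5, a histone chaperone-like gene, with 14.3 CPM in HC2 and 0.0102 in HC1, from 13.9% of the thinned HC2 cells, and its call was lost among the upper library numbers.

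In G2VLo cells, HC2 (36 cells) was also lower than HC1, by smaller ratios. H19 had 78.9 CPM in HC2 and 1007 in HC1 (12.8-fold lower), and Igf2 had 109.3 and 1063 (9.73-fold lower). The median HC2 cell had 5.64 CPM of H19 and 14.1 of Igf2, and the highest had 984.1 and 927.2. Low medians with a few high cells thus set the summed levels, and 1 cell held 35.5% of the H19 reads. The composition of HC2 differed between the gates: cluster 9 had 23 of the 36 G2VLo cells and 8 of the 44 G2VInt cells. The endothelial markers summed to 887.04 CPM in HC2 of G2VLo and 357.98 in HC2 of G2VInt. Of 18 measured members, 11 were called between HC2 and HC1 (15.1% of all genes in either direction), and all 11 were lower in HC2.

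U1, the class with macrophage markers, had 77 G2VLo cells. Of 18 measured members, 15 were at least 2-fold lower in U1 than in HC1 (28.9% of all measured genes) and 0 higher (13%). The median log2 ratio was -2.34 over the members and -0.48 over all genes. Igf2 was 33.2-fold lower (per-cell median 6.08 against 969.7 CPM), Cdkn1c 21-fold, Peg12 19.5-fold, H19 15.5-fold, Grb10 11.46-fold and Igf2r 10.6-fold. After thinning, 33 cells had both H19 and Igf2, 19 H19 alone, 6 Igf2 alone and 19 neither. The calls for Kcnq1ot1 (2.48-fold) and Ppp1r9a, a neuronal actin-binding protein gene (2.28-fold), were lost under trimmed-mean (TMM) and median-of-ratios scaling, and that for Mest (2.77-fold) under the latter. TMM moved all ratios of this comparison up by 0.40 on the log2 scale.

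**Figure D3:**
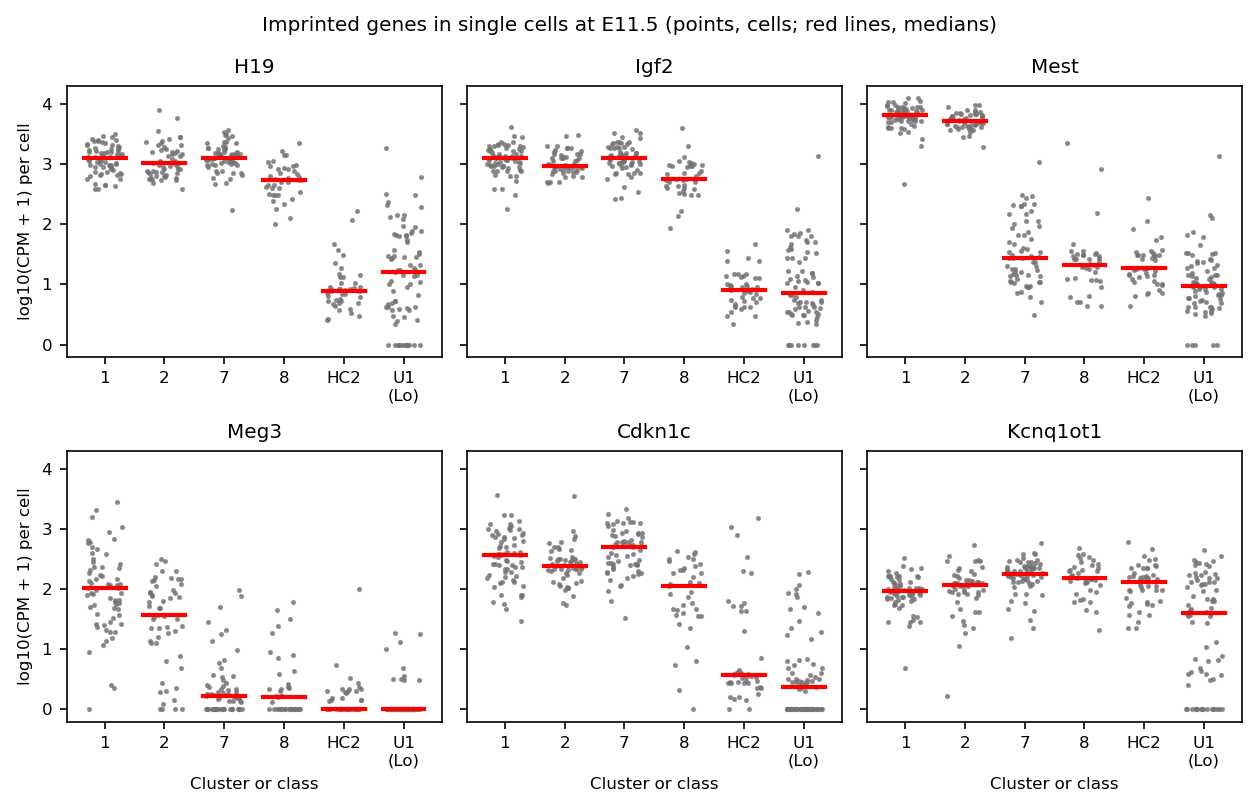
Level per cell (vertical axis, log10 of CPM + 1) of 6 imprinted genes in clusters 1, 2, 7, 8 and HC2 of E11.5 G2VInt cells and in U1 of G2VLo cells (horizontal axis), 1 point a cell, with the median as a red line. H19 and Igf2 drop in HC2 and U1, Mest drops already in clusters 7 and 8, and Kcnq1ot1 keeps a median above 100 CPM in HC2.

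Within HC1, cluster 7 (more endothelial markers) and cluster 8 differed most in maternally expressed genes at E11.5 G2VInt. Of 20 measured members, 5 were at least 2-fold higher in cluster 7 (63 cells) than in cluster 8 (39 cells; 5.78% of all genes) and 0 lower (2.85%). All 5 were maternally expressed, out of 7 measured ones, and 0 of 12 paternally expressed members were called. Cdkn1c ranged from 31.7 to 2147 CPM (median 506.4) in cluster 7 and from 0 to 429.6 (median 109.8) in cluster 8, and was 4.82-fold higher in cluster 7. H19 was 2.19-fold higher (medians of 1277 and 546.4 CPM). The other calls were Grb10 (2.21-fold), Igf2r (2.16-fold) and Slc22a18 (2.17-fold), and all 3 were lost when the lower library numbers alone were used. Igf2 was 1.79-fold higher in cluster 7, below the 2-fold rule.

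The split by parental class did not recur in the other samples. At E10, 8 of 18 measured members were higher in cluster 7 (5.56% of all genes) and 1 lower (3.68%), and paternally expressed Nnat (8.06-fold) and Mest (6.68-fold) led, before Cdkn1c (4.13-fold), Igf2r (2.71-fold) and H19 (2.39-fold). At E11, 6 of 20 were higher (6.39%) and 1 lower (3.1%), with Mest at 6.13-fold, Cdkn1c at 2.97-fold and Igf2r at 2.86-fold. In G2VLo cells, 3 of 19 were higher (4.09%) and 1 lower (3.44%), with Mest at 4.40-fold and Cdkn1c at 2.17-fold. Cdkn1c was the 1 member called higher in cluster 7 in all 4 samples, although its G2VLo call was lost among the lower library numbers. Dlk1 went the other way at E10, with 10.7 CPM in cluster 7 and 23.6 in cluster 8.

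Between the EC clusters, the Dlk1-Meg3 locus and Peg3 marked cluster 1. Of 25 measured members in E11.5 G2VInt cells, 4 were at least 2-fold higher in cluster 1 than in cluster 2 (4.12% of all genes) and 1 lower (1.34%). Peg3 was 4.37-fold, Meg3 4.32-fold and Rian 3.28-fold higher, and Nnat 2.26-fold lower. Dlk1 (18.7 and 1.29 CPM) lost its call without the cell with the most reads and among the upper library numbers. In G2VLo cells, 6 of 25 were higher (4.04%) and 0 lower (1.46%): Dlk1 8.49-fold, Magel2 7.62-fold, Meg3 4.28-fold, Peg3 3.84-fold, Rian 3.49-fold and Cdkn1c 2.56-fold, the last lost among the upper library numbers. The 6 neural markers summed to 126.6 CPM in cluster 1 and 19.3 in cluster 2 of the G2VInt cells, with 1 gene of the 6 at 10 CPM or more in each, and the 9 mesenchymal markers to 37.2 and 17.4. In G2VLo cells the neural sums were 38.5 and 9.56 CPM. Their part in these differences was not tested.

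Across days in the G2VInt gate, Gnas was higher at E11.5 in cluster 1, the Dlk1-Meg3 transcripts were lower in cluster 1, and Slc38a4 was lower in clusters 1, 7 and 8. Over all cells, 5 of 25 measured members were at least 2-fold higher at E11.5 than at E10 (7.19% of all genes) and 4 lower (2.13%). Mest (2.14-fold), Asb4 (2.84-fold), Nnat (4.70-fold) and Peg10 (2.49-fold) were among the higher ones, and all 4 were higher in EC than in HC1. The Mest call was lost among the lower library numbers. The 4 lower ones were Dlk1 (25.1 CPM at E10 and 7.402 at E11.5), Magel2 (10.9 and 3.803), Rian (39.3 and 18.7) and Impact (67.99 and 33.91). Of these, Dlk1 and Rian were also called higher in cluster 1 than in HC1 at E11.5. Magel2 was so called at E10, and Impact was lower in EC than in HC1. Of the 9 calls over all cells, 8 were kept under TMM scaling, where Impact was lost. Median-of-ratios scaling kept 7, without Impact and Rian. Leaving out the cell with the most reads also kept 7, without Magel2 and Rian. At E10 that cell held 40.1% of the Magel2 reads and 20.9% of the Rian reads. The mean of per-cell CPM kept 6, and so did the lower library numbers. Clusters 1 and 2 made up 11.49% and 4.60% of the cells at E10, 5.38% and 6.15% at E11, and 24.4% and 19.4% at E11.5. Values within clusters are therefore given next, and the part of this make-up was not tested. Each comparison between days also compares blocks of libraries.

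In cluster 1, E10 had 10 cells and E11.5 had 68. Of 27 measured members, 9 were lower at E11.5 (4.74% of all genes) and 1 higher (6.1%). Meg3 ranged from 320.4 to 1965 CPM (median 888.2) at E10 and from 0 to 2750 (median 103.4) at E11.5, a summed difference of 3.75-fold. The cells of the days overlapped, but the median E11.5 cell lay below the lowest E10 cell. Rian was 6.04-fold, Mirg 5.02-fold, Dlk1 4.68-fold and Magel2 9.58-fold lower at E11.5. For Dlk1, 1 cell held 50.1% of the E10 reads, and the call was lost among the lower library numbers. Slc38a4 was 2.58-fold, Airn 2.17-fold, Peg3 2.12-fold and Cdkn1c 2.07-fold lower. The calls for Airn and Cdkn1c were lost without the cell with the most reads, and those for Peg3 and Cdkn1c under TMM scaling.

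Gnas was the 1 member higher in cluster 1 at E11.5. It ranged from 4.03 to 28.5 CPM per cell (median 15.4) at E10 and from 10.9 to 302.04 (median 79.3) at E11.5, and the summed level was 5.84-fold higher. At E11 the 7 cells of cluster 1 had 61.5 CPM. In cluster 7 the values were 8.33, 10.4 and 12.4 CPM at E10, E11 and E11.5, and in cluster 8 they were 7.54, 6.77 and 11.0, none of which made a 2-fold difference. The difference was called in cluster 1 and over all cells (58.9 against 9.13 CPM), not in clusters 7 and 8. Whether the clusters differ in this was not tested.

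In HC1, Slc38a4 was the clearest difference between days. In cluster 7 it ranged from 0 to 311.4 CPM (median 66.5) at E10, from 0 to 108.9 (median 0.675) at E11 and from 0 to 179.1 (median 0.608) at E11.5. A read was found in 92.6%, 32.6% and 33.3% of the thinned cells. The summed level was 4.93-fold lower at E11.5 than at E10 in cluster 7 and 2.96-fold lower in cluster 8, the second call being lost among the lower library numbers. From E10 to E11 it was 5.04-fold and 6.56-fold lower. E11.5 was compared with the same E10 cells, so these differences share their reference.

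H19 in cluster 8 had 317.9 CPM at E10 (per-cell median 282.1), 712.2 at E11 (525.5) and 656.3 at E11.5 (546.4), a 2.06-fold difference between E10 and E11.5 that was lost among the lower library numbers. Igf2 there had 481.9, 710.3 and 783.4 CPM and was not called. In cluster 7, H19 had 759.6, 1429 and 1438 CPM and Igf2 981.2, 1446 and 1406. The ratio of H19 to Igf2 reads was 0.774 in cluster 7 and 0.660 in cluster 8 at E10, below the 0.988 and 1.00 of E11.

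Of 21 measured members in cluster 7, 2 were higher at E11.5 than at E10 (6.58% of all genes) and 2 lower (3.32%), and in cluster 8, 3 of 20 were higher (5.2%) and 4 lower (3.05%). Asb4 was 2.85-fold and 4.47-fold higher, from 5.09 and 4.88 CPM. Slc22a18 was 4.07-fold higher in cluster 7. Both cluster 7 calls were lost in the cells that keep their cluster in both clusterings. Dlk1 was 3.33-fold lower in cluster 8, from 23.6 to 7.08 CPM, and Snrpn 2.96-fold and Peg12 2.26-fold lower. The 4.38-fold difference of Mest in cluster 8 was 2.04-fold without the cell with the most reads, and was lost among the lower library numbers. Dlk1 in cluster 7 (10.7 and 0.727 CPM) was lost in that way. For E11 against E10, 6 of 26 members were lower over all cells (0.915% of all genes) and 1 higher (4.03%), 5 of 21 were lower in cluster 7 (2.61%) and 2 higher (8.17%), and 2 of 18 were lower in cluster 8 (2.13%) and 3 higher (6.07%). Between E11 and E11.5, 6 of 24 were higher over all cells (5.27%) and 0 lower (2.39%), led by Asb4 (4.35-fold), Gnas (4.16-fold) and Mest (3.91-fold). In cluster 7, 1 of 21 was then higher (1.32%) and 0 lower (2.55%), and in cluster 8, 3 of 20 were higher (2.42%) and 1 lower (3.93%). The member in cluster 7 was Nnat (2.24-fold, lost among the upper library numbers), and those in cluster 8 were Asb4, Mest and, except among the upper library numbers, Slc38a4 on the higher side and Peg12 on the lower. The comparisons of E10, E11 and E11.5 share samples. Those over all cells also differ in the shares of clusters 1 and 2 given above, whose part was not tested.

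**Figure D4:**
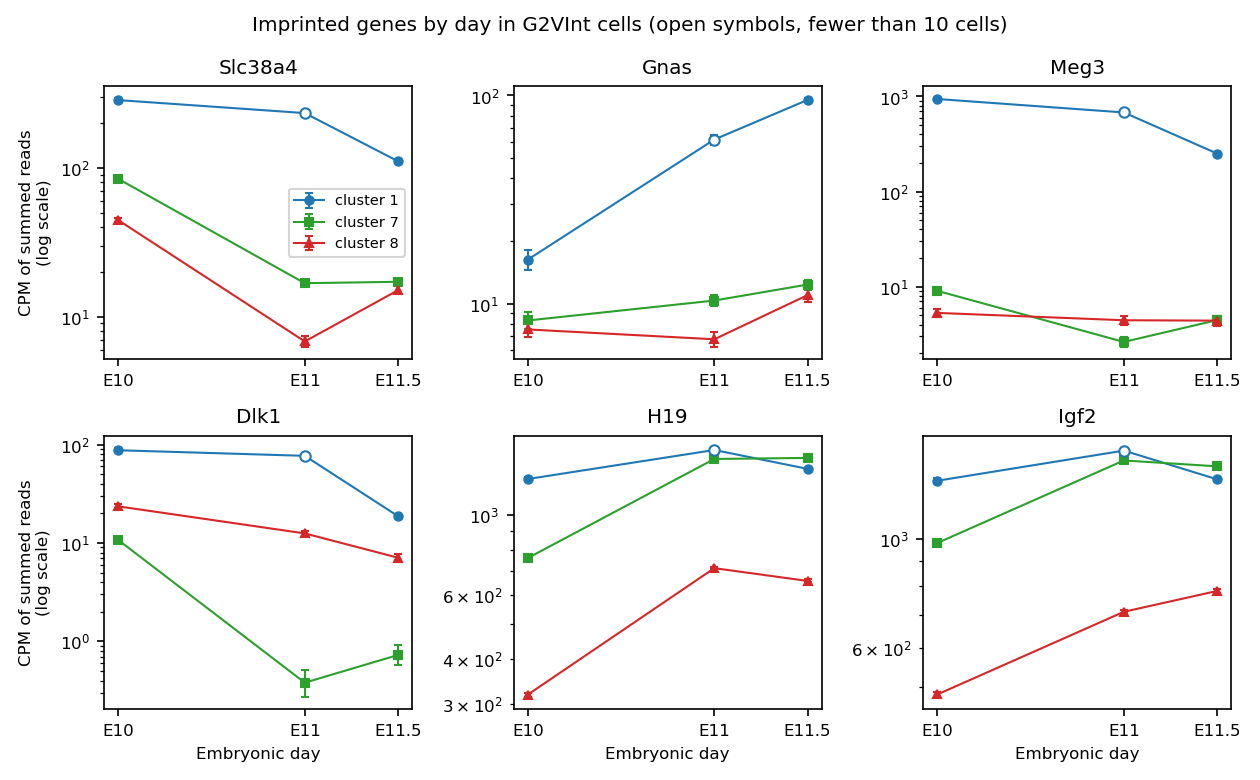
CPM of summed reads (vertical axis, log scale, 95% Poisson intervals as bars) of 6 imprinted genes at E10, E11 and E11.5 (horizontal axis) in clusters 1, 7 and 8 of G2VInt cells, with open symbols for sets of fewer than 10 cells. In cluster 1, Gnas is at 16.3 CPM at E10 and 95.2 at E11.5 and Meg3 at 940.6 and 251.1, and Slc38a4 in clusters 7 and 8 is lower at E11 than at E10.

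Between the Venus gates at E11.5 most members were alike. Over all cells, 2 of 23 measured members were at least 2-fold higher in G2VInt (1.65% of all genes) and 0 lower (1.69%). Gnas had 58.9 CPM in G2VInt and 25.4 in G2VLo (2.32-fold), and Nnat 94.9 and 43.6 (2.18-fold, lost under TMM and median-of-ratios scaling). The gates differed in the median of all genes by 0.18 on the log2 scale. Relative to that shift the members' median of 0.22 differed little. Depth and library block also differ between the gates and cannot be told apart from Venus level.

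Gnas was higher in G2VInt within each of the 4 clusters. In cluster 1 it ranged from 10.9 to 302.04 CPM (median 79.3) in G2VInt and had a median of 35.1 in G2VLo. The summed level was 2.27-fold higher, and the ratios that follow are also of summed reads. In cluster 2 the medians were 99.9 and 39.7 CPM (2.12-fold), in cluster 7 they were 10.7 and 3.41 (2.93-fold) and in cluster 8 12.5 and 2.78 (2.76-fold). The cells overlapped in each cluster. The cluster 2 call was lost under TMM and median-of-ratios scaling. Gnas reads were found in 65.1% of thinned G2VInt cells and 33.8% of thinned G2VLo cells in cluster 7, and in 61.5% and 30.4% in cluster 8.

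Nnat was 4.40-fold higher in G2VInt in cluster 7 and 2.63-fold in cluster 2, with 17.2 against 3.91 CPM and 246.2 against 93.5 CPM. Peg12 was 2.03-fold higher in cluster 2 (31.6 and 15.6 CPM), a call lost under TMM and median-of-ratios scaling and among the lower library numbers. Under either scaling, Nnat alone of the 3 calls in cluster 2 was kept. In cluster 7, Asb4 was 2.59-fold higher (14.5 and 5.60 CPM, lost among the lower library numbers). In cluster 1, Magel2 was 3.77-fold and Rian 2.08-fold lower in G2VInt, the second call being lost among the lower library numbers. In all, 1 of 26 members was higher (3.32% of all genes) and 2 lower (0.98%) in cluster 1, 3 of 23 higher (1.41%) and 0 lower (0.261%) in cluster 2, 3 of 21 higher (4.35%) and 0 lower (1.22%) in cluster 7, and 2 of 19 higher (3.26%) and 0 lower (1.73%) in cluster 8. The second call in cluster 8, Mest (2.66-fold), came down to 1.19-fold without the cell with the most reads. H19 and Igf2 differed by less than 1.3-fold between the gates in each of these clusters.

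**Figure D5:**
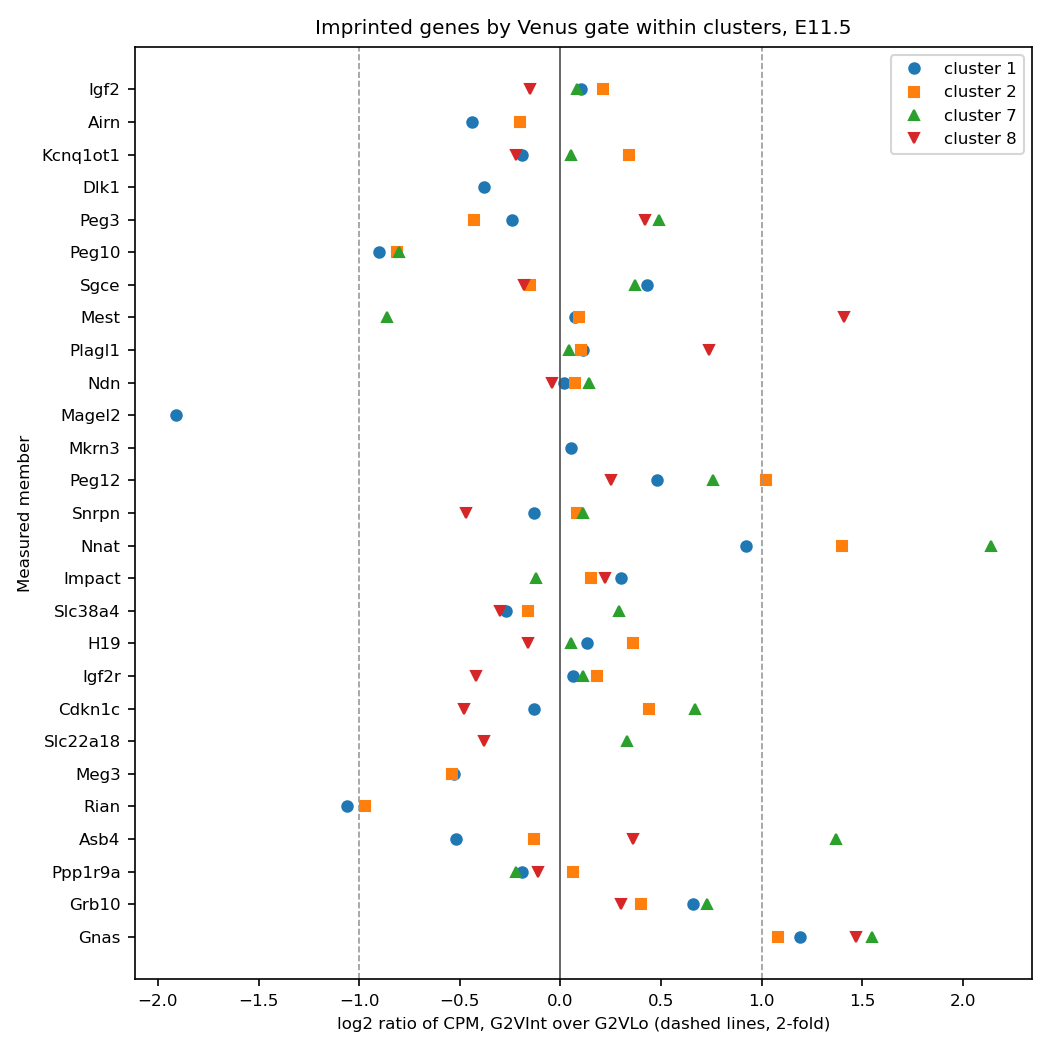
Log2 ratio of CPM, G2VInt over G2VLo at E11.5 (horizontal axis), of each measured imprinted gene (vertical axis) in clusters 1, 2, 7 and 8, with dashed lines at 2-fold. All 4 points of Gnas lie right of the upper dashed line, and most other members lie between the lines.

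HC2 was the exception. Igf2 had 7.59 CPM in G2VInt and 109.3 in G2VLo (14.4-fold lower), and H19 9.09 and 78.9 (8.68-fold lower), while Cdkn1c had 92.6 and 11.1 (8.34-fold higher, lost among the upper library numbers). The per-cell medians were 7.15 and 14.1 CPM for Igf2, 6.89 and 5.64 for H19, and 2.68 and 0.639 for Cdkn1c. The medians thus lay far closer than the sums. In this comparison 2 of 16 measured members were higher (7.77% of all genes) and 6 lower (4.23%). The lower calls of Plagl1, Mest and Igf2r were lost without the cell with the most reads, and Mest then had the opposite direction, at 2.36-fold higher. The cluster composition of HC2 given above differs between the gates, and its part was not tested.

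The CD27+ cells were compared by the authors' clustering of all cells. Over all cells, 4 of 23 measured members were at least 2-fold lower in CD27+ than in G2VLo (5.93% of all genes) and 0 higher (2.06%). Meg3 was 6.90-fold, Rian 3.84-fold, Mest 3.58-fold and Asb4 2.83-fold lower. The Rian call was lost among the upper library numbers. All 4 were higher in EC than in HC1, and the 10 endothelial markers summed to 2761 CPM in CD27+ and 4523 in G2VLo. The part of cell make-up in these differences was not tested. Without the cells of clusters 3 to 6, 10 members were called in either direction, the same 4 among them. The share of all genes called was not computed for that selection, so this rise has no background beside it. Against G2VInt, 7 of 23 were lower (8.3%) and 0 higher (1.69%), led by Meg3 (7.04-fold), Mest (4.37-fold) and Gnas (3.85-fold).

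Within all-cell cluster 8 (69 CD27+ cells), H19 and Igf2 were again abundant in CD27+ cells. H19 ranged from 41.5 to 7047 CPM with a median of 745.6, and Igf2 from 1.63 to 3465 with a median of 956.8. Of 19 measured members, 1 was higher in CD27+ than in G2VLo (1.23% of all genes) and 1 lower (1.99%). Peg10 was 4.67-fold higher, at 13 against 2.79 CPM, with a read in 20.3% and 7.32% of the thinned cells, but the call was lost among the lower library numbers. Asb4 was 2.20-fold lower, a call lost without the cell with the most reads. In all-cell cluster 7 (16 CD27+ cells) 3 of 21 members were higher (6.59%) and 0 lower (8.97%), and all 3 calls, Asb4, Mest and Mkrn3, were lost without that cell. The highest set level of H19 and Igf2 in CD27+ cells was in the 8 cells of all-cell cluster 9, with 4001 and 2209 CPM, too few cells for a comparison.

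Within 1 cluster and sample, H19 and Igf2 varied together among cells, and so did Meg3 and Rian in cluster 1, whereas Kcnq1ot1 and Cdkn1c did so little. These Spearman correlations of thinned counts share library preparation and depth and are descriptions. Igf2 and H19 correlated at 0.49, 0.76, 0.59 and 0.76 in clusters 1, 2, 7 and 8 of G2VInt (68, 54, 63 and 39 cells) and at 0.73, 0.57, 0.72 and 0.71 in those of G2VLo (60, 71 and 92 cells in clusters 1, 7 and 8, and more in cluster 2). Meg3 and Rian correlated at 0.78 in cluster 1 of G2VInt and 0.73 in that of G2VLo, and Dlk1 and Meg3 at 0.51 and 0.75. Kcnq1ot1 and Cdkn1c, which lie in 1 imprinted domain, lay between -0.10 and 0.26 over the 8 sets. Mest and H19 correlated at -0.45 and -0.36 in cluster 2 of G2VInt and G2VLo, and Meg3 and Gnas at -0.45 and -0.40 in cluster 1.

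Counted by cell, detection of Meg3 and Dlk1 differed between clusters and days. In cluster 1 of E11.5 G2VInt, 14 cells had both after thinning, 48 had Meg3 alone, 2 Dlk1 alone and 4 neither. In cluster 8 at E10, 3 cells had both, 3 Meg3 alone, 23 Dlk1 alone and 7 neither. In cluster 1 at E10, 8 of the 10 cells had both and 2 had Meg3 alone. Most cells thus had Dlk1 alone in cluster 8 at E10, both in cluster 1 at E10, and Meg3 alone in cluster 1 at E11.5. In cluster 1, Peg3 had 138.6 times the reads of its neighbour Usp29.

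Other genes of the pathways were read from lists. Of 18 genes of the insulin-like growth factor axis, 12 were measured between cluster 1 and HC1 of E11.5 G2VInt, 5 higher in cluster 1 (12.8% of all genes) and 0 lower (12.5%), led by the binding proteins Igfbp7 (350.2-fold), Igfbp3 (148.8-fold) and Igfbp5 (23.9-fold). The ligand Igf1 was 22.5-fold higher. Between HC2 and HC1, 4 of 8 were lower in HC2 (16%) and 0 higher (6.91%), with Igf1 14.3-fold and Igfbp4 7.19-fold lower. In cluster 7, 4 of 11 measured genes of this list were lower at E11.5 than at E10 (3.32% of all genes) and 0 higher (6.58%). They were Igfbp5 (152.5-fold), Igfbp3 (36.9-fold), Igf1 (6.38-fold) and Igfbp2 (5.93-fold). Of 15 genes that maintain imprints, 12 were measured. In cluster 1 against HC1, 1 of them was higher (12.8% of all genes) and 0 lower (12.5%), so the list held no more calls than the background. The 1 call, Zfp57, the zinc finger protein that binds methylated imprinting control regions, had 80.2 CPM in cluster 1 and 14.6 in HC1 (5.50-fold). In HC2, Zfp57 was 13.3-fold and Zfp202 83-fold lower than in HC1, and 0 of the 12 were higher, so that 2 of 12 were lower beside 16% of all genes.

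A list of 42 other imprinted genes had 25 measured in cluster 1 against HC1, 6 higher (12.8% of all genes) and 3 lower (12.5%), led by Tfpi2 (246.98-fold) and the potassium channel gene Kcnq1 (175.9-fold) on the higher side and Slc22a3 (29.5-fold) and Tspan32 (20.7-fold) on the lower. In HC2 against HC1, 2 of 22 were higher (6.91%) and 4 lower (16%), both near the background, with Zdbf2 11.6-fold and Peg13 5.41-fold lower. Of 6 other kinase inhibitor genes, 2 were measured in HC2 and HC1, and 1 of them, Cdkn1a, was 8.27-fold higher in HC2, where Cdkn1c was lower. In U1 of G2VLo cells 4 of these were measured and 3 were higher than in HC1 (13% of all genes): Cdkn2c 629.4-fold, Cdkn1a 4.02-fold and Cdkn1b 2.80-fold.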

How the data were processed

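The unit is the raw read count of each Ensembl gene in each cell, deposited unscaled by the authors; HTSeq 0.6.0 and GRCm38 are named in the submitters' processing notes. Libraries were made with Nextera XT, per the labels' protocols. The aligner, annotation release, strand setting and filters are not given in the sources used here, and no molecular identifiers are mentioned, so PCR copies count as reads and make intervals too narrow. The 1087 cells (279 in E11.5 G2VInt, 472 in G2VLo, 119 in CD27+; 102 and 163 in HC1 of E11.5 G2VInt and G2VLo, 124 in cluster 2 of G2VLo, 123 in all-cell cluster 8 of G2VLo) had 117369 to 6999570 reads (median 818924), and 0 pairs of columns were identical. Symbols came from GENCODE M21 for 45229 genes; the 849 without one held 0.0859% of the counts.

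Members and lists were chosen with earlier results of these data known. All 34 members are described. Of the other lists, up to 4 measured genes with the largest ratio were named. Clusters and groups were taken from the labels. Reads were summed per set, scaled to CPM and compared as ratios, with no test because each group is 1 sample. A set needed 10 cells. Correlations used members with a read in at least 20% of thinned cells. Scripts were tested on simulated data. Alternatives were 3-fold calls, no filter, other scalings, the lower and the upper library numbers alone, cells of the same cluster in both clusterings, and leaving out the cell with the most reads. Software was Python 3.11.15, NumPy 2.4.6, SciPy 1.17.1, pandas 2.3.3, matplotlib 3.10.9, R 4.3.3 and edgeR 4.0.16 (for TMM factors alone).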

Additional observations from a re-analysis of the deposited data

Results flagged for a closer look

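Clusters 3 and 4 of the G2VLo cells, with 5 and 7 cells, were not compared as sets of their own. Their cells are among those of the comparisons over all G2VLo cells. Clusters 3 and 4 had members well above the level of these members in the clusters compared. Phlda2, a maternally expressed growth restrainer of the Cdkn1c neighbourhood, had 457.01 CPM in cluster 3, where the 5 cells ranged from 106.96 to 665.5. In cluster 4 it had 19.6 CPM, all from 1 cell. No other G2VLo cluster exceeded 3.62 CPM. Snrpn had 135.7 CPM in cluster 3 (92.1 to 176.7 per cell), against at most 20.8 in the G2VLo clusters other than 3 and 4. Over all E10 G2VInt cells it had 30.9 CPM. The 7 germ cell markers summed to 2720 CPM in cluster 3. The collagen-binding proteoglycan gene Dcn had 35.3 CPM in cluster 4, against at most 1.71 in the G2VLo clusters other than 3 and 4. In cluster 4 the 9 mesenchymal markers summed to 1417 CPM.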

How the results depend on the processing

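For 17 of the comparisons, the count of members called in either direction was recomputed under 8 alternatives, for 13 of them also in the cells with the same cluster in both clusterings, and for 3 of all cells without U1 and U2; for the others of the report no such counts were made. With no filter on low values, the count was 23 for cluster 2 against HC1, 13 for cluster 7 against 8, 13 for cluster 1 against 2, 27 for U1 against HC1, 12 and 15 for E11.5 against E10 in clusters 7 and 8, 5, 7, 9, 8 and 9 for the gates in all cells and clusters 1, 2, 7 and 8, and 9 and 8 for CD27+ against G2VLo in all cells and all-cell cluster 8. With 3-fold calls it was 1 for cluster 7 against 8, 3, 6 and 3 for E11.5 against E10 in all cells and clusters 1 and 8, 0, 1, 0, 1 and 0 for the gates in the same order as above, and 1 for CD27+ in all-cell cluster 8. Among the upper library numbers it was 8 for cluster 7 against 8 and 6, 5 and 4 for the gates in clusters 1, 7 and 8; among the lower ones 5 for the gates in cluster 7, and 7 and 4 for CD27+ in all cells and all-cell cluster 8. TMM and median-of-ratios scaling each gave 1 for the gates over all cells. Without the cell with the most reads the gates had 5 in cluster 1 and 1 in cluster 8. Without U1 and U2, CD27+ against G2VLo had 10. The share of all genes called was not recomputed under these alternatives. The mean of per-cell CPM left all 17 counts within 1.5 times, and the cells of the same cluster in both clusterings all 13; in the latter, E11.5 against E10 in cluster 7 again had 4 members called, but 1 was shared, and in cluster 1 it had 8, of which 7 were among the 10. Apart from the filter and the fold, whose construction sets the count, the cause was not tested. No paired analysis was possible because the labels give no replicate numbers shared between groups. With 1 sample a group, differences between embryos or litters were not measured. Members under 10 CPM in both sets of a comparison were left out by the chosen limit.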
